A study of Mus musculus with 2 samples.

Results

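The cells described here were those of mouse somitic gastruloids that carried RNA of Pim2, Pou3f1 and Epcam together. They also stayed below the exclusion thresholds set for markers of naive pluripotent and non-neural ectoderm cells. A barcode with at least 1000 detected genes and at most 10% mitochondrial counts was a member when it held at least 1 unique molecular identifier (UMI, 1 captured RNA molecule) of Pim2, at least 1 of Pou3f1 and at least 5 of Epcam. It was left out when 2 or more of the 3 naive genes Zfp42, Tdh and Dppa5a stood at 2 or more UMIs, or when 3 or more of the 4 non-neural ectoderm genes Sfn, Upk1a, Dlx5 and Grhl3 stood at 1 or more. The rule selected 570 of 13826 kept cells, 125 of 6646 in the untreated library and 445 of 7180 in the dTAG-13 library. They are called the Pim2 and Pou3f1 positive epithelial cells, or the double-positive cells, below.

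Both libraries came from one mouse embryonic stem cell line, an E14 triple reporter line whose own Zeb2 gene carries an HA and FKBP12F36V degron tag, so the untreated cells carried the tag as well. CHIR99021 at 3 µM was given from 48 h and 10% Matrigel from 96 h to aggregates of 300 sorted cells. The treated group received 100 nM dTAG-13, a compound that brings an FKBP12F36V-tagged protein to degradation, at 72 and 96 h, and the control group is labelled untreated. About 32 gastruloids were pooled per group, live cells were sorted, 10000 cells were loaded, and 1 10x Genomics 3′ library was made per group. With 1 pooled library per group no difference between the groups has a replicate check, and treatment and library cannot be told apart.

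In the mouse embryo the epiblast is the epithelium from which all germ layers derive. As it leaves the naive state it switches off genes such as Zfp42 and Dppa5a and switches on formative genes such as Pou3f1 (Oct6, a POU transcription factor), Otx2, Fgf5 and the de novo DNA methyltransferase Dnmt3b, while Pou5f1 (Oct4) stays on. Pim2 encodes a serine/threonine kinase that acts in cell survival and growth, and Epcam a surface adhesion protein of epithelia. Zeb2 is a zinc-finger transcription factor known as a repressor of epithelial genes in the epithelial-to-mesenchymal transition, and it binds E-box sequences of the CACCTG type. Because dTAG-13 acts on the protein, the Zeb2 transcript does not check the treatment. Zeb2 stood in the double-positive cells at 89.4 CPM (UMI counts of the gene per 1000000 counts of the summed cells; 95% interval 80.3 to 99.1) in the untreated library and at 113.5 CPM with dTAG-13 (107.4 to 119.8), and 92 and 350 of the cells held a UMI of it.

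The bases just upstream of 3 genes are shown because the cells were selected on Pim2 and Epcam and because Ap1m2, an epithelial sorting adaptor subunit, had the highest dTAG-13 over untreated ratio in the epithelial list. All are from RefSeq on GRCm38.p6, written 5′ to 3′ on the gene's strand and ending at the base before the first annotated start. Capitals mark CACCTG on either strand, that is CACCTG or CAGGTG.
Pim2 (chrX:7878056-7878261, + strand): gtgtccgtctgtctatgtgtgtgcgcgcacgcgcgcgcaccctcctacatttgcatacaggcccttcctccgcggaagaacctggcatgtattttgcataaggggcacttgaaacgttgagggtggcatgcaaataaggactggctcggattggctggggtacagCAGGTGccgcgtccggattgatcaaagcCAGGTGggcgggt
Epcam (chr17:87635729-87635978, + strand): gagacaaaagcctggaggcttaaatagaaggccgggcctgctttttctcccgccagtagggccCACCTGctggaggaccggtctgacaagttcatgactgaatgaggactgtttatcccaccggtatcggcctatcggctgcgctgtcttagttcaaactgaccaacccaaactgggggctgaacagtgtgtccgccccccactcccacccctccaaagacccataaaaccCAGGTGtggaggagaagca
Ap1m2 (chr9:21312338-21312583, - strand): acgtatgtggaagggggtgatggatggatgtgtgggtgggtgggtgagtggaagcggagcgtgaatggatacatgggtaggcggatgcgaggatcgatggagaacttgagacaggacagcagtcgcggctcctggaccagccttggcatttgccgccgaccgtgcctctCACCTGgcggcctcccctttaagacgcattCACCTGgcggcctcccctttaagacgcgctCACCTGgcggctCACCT
The 250 bases upstream of the RefSeq start held 2 copies at Pim2, 2 at Epcam and 4 at Ap1m2, where the copies lie in near repeats and the last one runs into the first annotated start. Of 32851 such windows of all genes, 5657 (17.2%) held at least 1 copy and 678 (2.06%) at least 2. A window was found for 4 of the 6 marker genes Pim2, Pou3f1, Epcam, Calca, Wnt8a and Pou5f1, and those of Calca and Pou5f1 held 0 copies. The windows of Klf2 and Foxa2 held 0 copies as well. Of 17 matched genes that were highest over other kept cells 3 (17.6%) held a copy, near the share of all windows, and of the 12 genes with the highest dTAG-13 over untreated ratio 6 (50%) did. These matches describe letters, not binding.

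The deposited tables held 7276 untreated and 7873 dTAG-13 barcodes over 32285 genes, of which the filters removed 630 and 693. The median kept cell held 20520.5 UMIs untreated and 20732.5 dTAG-13. The double-positive cells held 3995002 and 11622574 UMIs in all, with 10052, 26389 and 119276 per cell (lowest, median and highest) in the untreated and 4881, 23308 and 113747 in the dTAG-13 library. Other kept cells had medians of 20470 and 20532. Cells above 2 times the median of their library made up 20% of the untreated and 9.66% of the dTAG-13 double-positive cells, against 7.84% and 7.66% of other cells, and no doublet caller was run. The median mitochondrial share of the double-positive cells was 4.28% and 4.60%. The libraries shared 14 barcode strings, and 1 double-positive cell had its barcode in the other library.

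The double-positive cells made up 1.88% of kept untreated cells (exact binomial 95% interval 1.57 to 2.24) and 6.20% of kept dTAG-13 cells (5.65 to 6.78), a ratio of 3.30 (exact conditional interval 2.70 to 4.05). The dTAG-13 library supplied 78.1% of the double-positive cells and 51.9% of all kept cells. All intervals cover counting error only. Each threshold of the rule was itself met by more cells of the dTAG-13 library. Pim2 was detected in 808 untreated cells (12.2%) and 1834 dTAG-13 cells (25.5%), and Pou3f1 in 976 (14.7%) and 1351 (18.8%). Epcam reached 5 UMIs in 2282 untreated cells (34.3%) and 4992 dTAG-13 cells (69.5%). Among cells that had reached the Epcam threshold the double-positive share was 5.48% (4.58 to 6.49) and 8.91% (8.14 to 9.74), a ratio of 1.63 (1.33 to 2.001). So the ratio over Epcam-positive cells was lower than that over all kept cells.

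The naive exclusion took out 60 untreated and 160 dTAG-13 cells that had met all 3 thresholds, and the non-neural ectoderm exclusion a further 3 and 95. Cells that met every other condition but had no Pou3f1 UMI numbered 183 and 605, and those with no Pim2 UMI 253 and 279. Many members stood at the edge of the rule. Pim2 was at exactly 1 UMI in 45 untreated and 114 dTAG-13 members, Pou3f1 in 50 and 217, and both genes in 25 and 72. Epcam stood at exactly 5 in 10 and 10 members, and 8 and 7 cells with exactly 4 were left just outside. Both Pim2 and Pou3f1 were at 2 or more UMIs in 55 untreated and 186 dTAG-13 members. The exclusions had edges as well. In 36 untreated (28.8%) and 109 dTAG-13 members (24.5%) 1 naive gene stood at 2 or more UMIs. Of the 4 non-neural ectoderm genes, 2 were seen in 15 (12%) and 72 members (16.2%), and 0 in 79 (63.2%) and 251 (56.4%). A UMI of 1 can come from free RNA in the droplet. With every cell thinned to 5000 UMIs, Pim2 was seen in 45.6% and 58.8% of the double-positive cells, all of which the rule had selected on Pim2. It was seen in 1.93% and 3.13% of cells selected on somite genes (median depths before thinning 23798 and 24787 UMIs). It was seen in 3.28% and 7.91% of other kept cells, and in 12.2% and 14.3% of cells with 2 or more naive genes at 2 or more UMIs. The part of free RNA in members at 1 UMI was not tested.

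**Figure D1:**
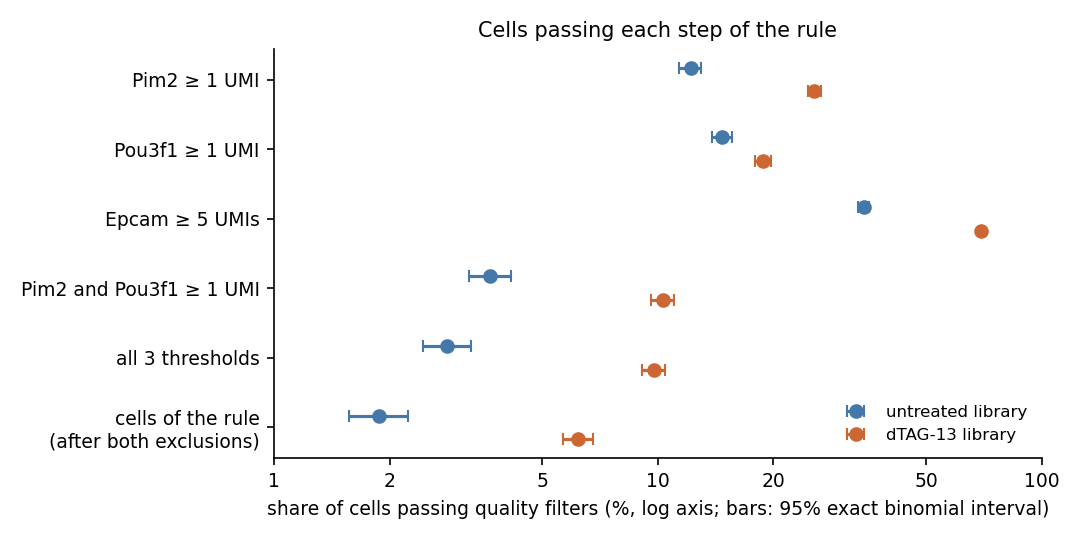
Share of kept cells passing each step of the rule in the untreated (blue) and dTAG-13 (orange) library, on a log axis in percent, with exact binomial 95% intervals. Every step was met by a larger share of the dTAG-13 library, from 12.2% against 25.5% for Pim2 to 1.88% against 6.20% for the final set.

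The levels of the rule genes describe the selection and test nothing. Per untreated member, Pim2 stood at 1, 3 and 22 UMIs (lowest, median, highest), Pou3f1 at 1, 2 and 15 and Epcam at 5, 12 and 46. Per dTAG-13 member the values were 1, 3 and 35 for Pim2, 1, 2 and 30 for Pou3f1 and 5, 16 and 60 for Epcam, so the groups overlapped over nearly their whole range. Summed over cells, Pim2 (chrX:7878262-7883432 on GRCm38, GENCODE M21) stood at 124 CPM untreated and 181 CPM dTAG-13, against 9.31 and 25.2 CPM in all other kept cells. Pou3f1 (chr4:124656807-124660655) stood at 81.6 and 111 CPM, against 10.2 and 15.5 CPM.

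Markers outside the rule are set here beside the label of epiblast-like cells. Every comparison of these cells with other cells of the same libraries is a description. Calca, Wnt8a and Pou5f1 were set as markers of these cells with earlier results of these data known. Their levels are therefore no check of the label. Calca, which encodes calcitonin and its related peptide, had a UMI in 67 untreated (53.6%) and 264 dTAG-13 members (59.3%), and its level was 34.0 and 50.6 CPM against 9.84 and 16.7 CPM in other cells. Wnt8a, a WNT ligand of the posterior epiblast, had a UMI in 77 (61.6%) and 259 (58.2%) and stood at 54.6 and 63.3 CPM against 18.5 and 27.4 CPM. Pou5f1 had a UMI in 104 (83.2%) and 395 (88.8%) and stood at 123 and 190 CPM against 71.9 and 121 CPM. Calca and Wnt8a were thus at least 2-fold higher than in other cells of both libraries, while Pou5f1 was higher by less than that. Among the formative genes, Dnmt3b stood at 164 and 357 CPM against 73.9 and 164 CPM. Sox3, a SOX factor of epiblast and neural progenitors, stood at 32.8 and 32.3 CPM against 18.4 and 15.1 CPM. Fgf5 had a UMI in 22 untreated (17.6%) and 147 dTAG-13 members (33.0%), against 4.45% and 11.4% of other kept cells, and stood at 9.76 and 27.4 CPM against 5.92 and 13.2 CPM. By summed level, other markers of the epiblast did not follow the label. Otx2 stood at 5.51 and 22.9 CPM, below the 14.5 and 31.2 CPM of other cells. Utf1, a chromatin factor of pluripotent cells, stood at 29.04 and 48.7 CPM against 28.8 and 44.9 CPM. The share of cells with a Utf1 UMI was higher, 31.2% and 47.2% of members against 11.85% and 20.8% of other kept cells. After thinning it was 9.6% and 16.9% against 6.36% and 10.1%. Other kept cells include those that meet the naive exclusion, of which 88.7% and 87.4% had a Utf1 UMI. Otx2 had a UMI in 10.4% and 17.5% of members against 7.45% and 13.4%. After thinning its shares were 0.8% and 7.21% against 3.87% and 7.33%. Of 15 described genes of the formative and primed epiblast list, 3 were at least 2-fold higher than in other cells of both libraries, and 2 of these 3, Pim2 and Pou3f1, belong to the rule. The markers thus followed the label only in part, and the cells are named here by their rule.

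**Figure D2:**
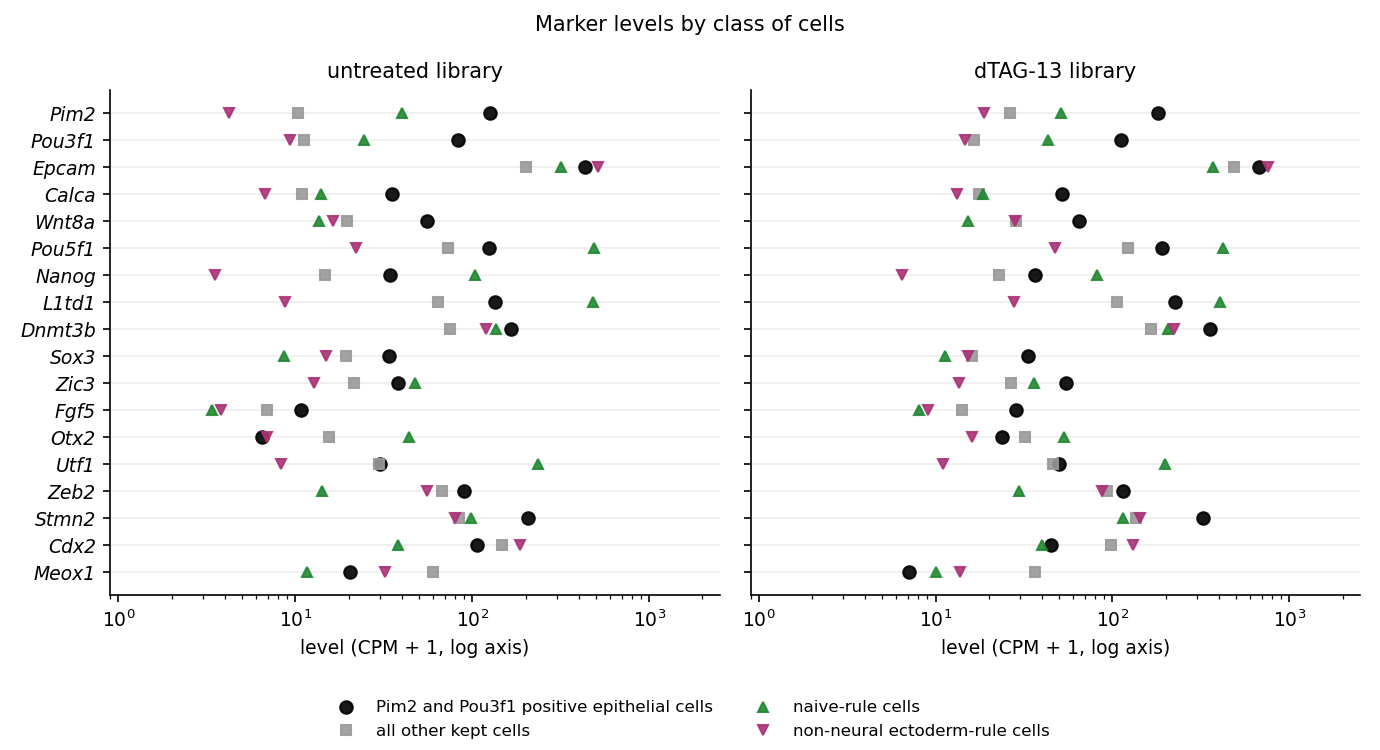
Levels of 18 genes (CPM plus 1, log axis) in the double-positive cells (black circles), all other kept cells (grey squares), naive-rule cells (green) and non-neural ectoderm-rule cells (purple), for each library. Calca, Wnt8a, Dnmt3b and Stmn2 stand to the right in the double-positive cells of both libraries, and Otx2 stands left of the other kept cells.

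Genes were described where their mean over both libraries was at least 5 CPM in the double-positive cells, which held for 9436 genes. Of these, 40 (0.424%) were at least 2-fold higher and 38 (0.403%) at least 2-fold lower than in other kept cells of both libraries, with 1 CPM added to each level. The genes with the highest ratio, given as the smaller log2 ratio of the 2 libraries, were Slc27a2 (1.69), an acyl-CoA synthetase and fatty acid transporter, Calca (1.54), Cdh13 (1.53), a cadherin anchored to the membrane without a cytoplasmic domain, and Pcsk1n (1.49), an inhibitor of prohormone convertase 1. Next came Stmn2 (1.27), a tubulin-binding protein best known from neurons, and Gng3 (1.26), a G protein gamma subunit. Stmn2 was seen in 117 of 125 and 424 of 445 members and stood at 206 and 325 CPM against 83.2 and 134 CPM in other cells. Slc27a2 stood at 16.0 and 38.5 CPM against 4.29 and 9.98 CPM. Lpar4, a lysophosphatidic acid receptor, stood at 31.5 and 31.9 CPM against 13.7 and 13.5 CPM, and thus had like values in both libraries. L1td1, an RNA-binding protein of pluripotent cells, stood at 133 and 226 CPM against 62.8 and 104 CPM. The noncoding RNAs Rian (0.99), Meg3 (0.92) and Mirg (0.91), all of 1 imprinted locus, were also among the 20 highest named genes.

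Naive-rule cells, 576 untreated and 867 dTAG-13, held 2 or more of the 3 naive genes at 2 or more UMIs. Against them, 296 genes (3.14%) were at least 2-fold higher and 182 (1.93%) at least 2-fold lower in the double-positive cells of both libraries. The highest included Cdh13, the homeobox genes Irx5 and Irx3, Wnt8a and Zeb2. Zeb2 stood at 13.2 and 28.4 CPM in naive-rule cells, below the 89.4 and 113.5 CPM of the double-positive cells. The lowest, after the rule gene Dppa5a, included Rhox5 and Utf1, and Utf1 stood at 233 and 198 CPM in naive-rule cells. Pou5f1, at 489 and 418 CPM, Nanog, at 102 and 80.7 CPM, and L1td1, at 482 and 404 CPM, were all more abundant in naive-rule cells than in the double-positive cells, where Nanog stood at 33.3 and 35.7 CPM.

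Non-neural ectoderm-rule cells, 236 untreated and 1308 dTAG-13, held 3 or more of the 4 ectoderm genes. Against them, 93 genes (0.986%) were at least 2-fold higher and 75 (0.795%) at least 2-fold lower in the double-positive cells of both libraries. Pluripotency-associated genes led the higher ones. Klf2, a zinc-finger factor of naive cells, stood at 36.5 and 100.1 CPM against 2.79 and 9.44 CPM, L1td1 at 133 and 226 CPM against 7.79 and 26.6 CPM and Nanog at 33.3 and 35.7 CPM against 2.50 and 5.49 CPM. The lower ones were led, after the rule gene Sfn, by genes of simple and surface epithelia. Krt8 (a keratin) stood at 42.5 and 96.9 CPM against 307 and 406 CPM, and Krt18, its partner keratin, at 47.6 and 90.6 CPM against 222 and 316 CPM. Dsp (desmoplakin) and Tfap2c (AP-2 gamma, a factor of ectoderm and germ cells) were lower as well. Epcam itself stood at 434 and 673 CPM in the double-positive cells and at 514 and 755 CPM in the non-neural ectoderm-rule cells.

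The double-positive cells were not uniform in their Hox RNA. Hox genes are ordered along their clusters, and those of groups 5 to 9 mark trunk and posterior identity. The summed UMIs of groups 5 to 9 were 0 in 44 untreated members (35.2%) and 279 dTAG-13 members (62.7%), and 30 or more in 34 (27.2%) and 36 (8.09%). The sum was 1 to 2 in 28 (22.4%) and 82 (18.4%), 3 to 9 in 6 (4.8%) and 14 (3.15%) and 10 to 29 in 13 (10.4%) and 34 members (7.64%), so the bin of 3 to 9 was the least filled in both libraries. With the threshold at 3 UMIs, chosen after the data had been seen, 53 of 125 untreated members (42.4%, 33.6 to 51.6) and 84 of 445 dTAG-13 members (18.9%, 15.4 to 22.8) carried Hox RNA. Among other kept cells the shares were 71.2% and 54.9%. After thinning to 5000 UMIs, any such UMI was seen in 46.4% of untreated and 22.7% of dTAG-13 members. Hox-carrying members were deeper, with medians of 37464 and 35739.5 UMIs against 21690 and 21785 in Hox-low members, and 23 of 53 and 29 of 84 exceeded 2 times the library median. They also stood at or near the edge of the rule. Their median Pim2 UMIs were 1 untreated and 2 dTAG-13, against 4 and 4 in Hox-low members. Their median Pou3f1 UMIs were 1 and 1, against 2 and 2. Among members below that depth the Hox-carrying share was 30 of 100 untreated (21.2% to 40.0%) and 55 of 402 dTAG-13 cells (10.5% to 17.4%), so the untreated share stayed above the dTAG-13 share. The part of depth and of doublets in the split was not tested.

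**Figure D3:**
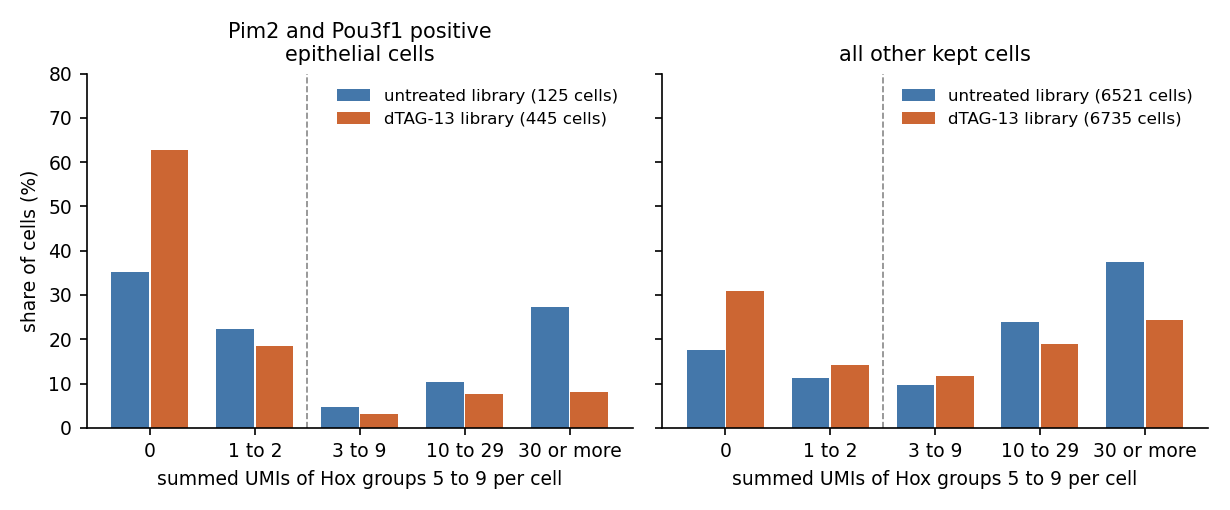
Share of cells (percent) by the summed UMIs of Hox groups 5 to 9, for the double-positive cells (left) and all other kept cells (right), untreated in blue and dTAG-13 in orange. The dashed line marks the threshold of 3 UMIs, and 62.7% of dTAG-13 against 35.2% of untreated double-positive cells stand at 0.

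Some pluripotency genes were more abundant in Hox-low members of both libraries, and others were not. Pou5f1 stood at 197 and 226 CPM in Hox-low and at 68.5 and 98.6 CPM in Hox-carrying members, and Pim2 at 210 and 224 against 60.2 and 73.3 CPM. Utf1 stood at 56.9 and 63.2 against 8.29 and 12.6 CPM, and Nanog at 62.8 and 42.7 against 11.4 and 18.3 CPM. Sall4, a zinc-finger factor of pluripotent cells, had the other order, at 61.6 and 69.0 against 93.4 and 96.5 CPM, and Lin28a, an RNA-binding protein, stood at 132.7 and 138.9 against 143.2 and 157.5 CPM. Sox2 stood at 112.1 and 98.0 against 168.9 and 94.4 CPM. Posterior genes had the reverse order. Cdx2, a homeobox activator of posterior Hox genes, stood at 21.7 and 16.3 CPM in Hox-low and 167 and 112 CPM in Hox-carrying members, and T (Brachyury) at 2.94 and 6.63 against 47.6 and 21.0 CPM. Of all kept cells, Hox-low members made up 1.08% untreated and 5.03% dTAG-13, a ratio of 4.64, and Hox-carrying members 0.80% and 1.17%, a ratio of 1.47. The subset is a range of a score and not a cell type. Because its proportion differed between the libraries, counts or ratios within the subsets are given below for many of the calls. A call given without them was not shown to hold within the subsets.

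Within the double-positive cells, 272 of the 9436 described genes (2.88%) were at least 1.5-fold higher in the dTAG-13 than in the untreated library and 210 (2.23%) at least 1.5-fold lower. Among other kept cells the counts over the same genes were 223 (2.36%) and 75 (0.795%). Higher and lower are used below for a difference of at least 1.5-fold between the summed levels, which is a size and not a test. The median log2 ratio over all described genes was 0.01. The 12 genes with the highest ratios at a mean of 20 CPM or more were Foxa2, Eras, Cldn7, Apela, Klf2, Slc27a2, Pcsk1n, Krt8, Dnmt3b, Emb, Gstm1 and Rabgap1l. The 12 lowest were Hoxb5os, Lefty2, Hoxc8, Hoxc6, Hoxaas3, Hoxa7, Hes7, Hoxb9, Ncam1, Hoxb8, Hoxb4 and Fabp7. Hoxb5os and Hoxaas3 are antisense genes, and their reads cannot be told apart from those of the genes they overlap unless strand was used in counting, which the labels do not state.

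Cldn7 (chr11:69964779-69967885), a tight junction claudin, had a UMI in 73 of 125 untreated (58.4%) and 399 of 445 dTAG-13 members (89.7%), with medians of 1 and 3 UMIs per cell. Its level was 50.8 CPM untreated and 145 CPM dTAG-13, a log2 ratio of 1.49 (1.28 to 1.70), 0.88 within Hox-low and 2.11 within Hox-carrying members. Other kept cells had a larger ratio for Cldn7, 2.37, from 17.9 to 96.1 CPM. Foxa2 (chr2:148042877-148046969), a forkhead factor of endoderm, notochord and streak, had a UMI in 12 untreated and 125 dTAG-13 members and stood at 8.76 and 32.4 CPM, a log2 ratio of 1.77 (1.31 to 2.25). It was higher in both Hox subsets, by 1.33 and 2.22 on the log2 scale. Eras, a Ras-like GTPase of embryonic stem cells, stood at 11.8 and 35.5 CPM. Klf2 (chr8:72319033-72321656) stood at 36.5 and 100.1 CPM, a log2 ratio of 1.43 (1.18 to 1.68), although 1 untreated cell held 24.0% of its untreated UMIs. It was higher within Hox-low members (1.16), and its ratio was 0.55 within Hox-carrying members. Dnmt3b (chr2:153649450-153687730) had medians of 4 and 6 UMIs per cell, and its log2 ratio was 1.12 (1.00 to 1.24), 0.69 in Hox-low, 1.15 in Hox-carrying and 1.14 in other kept cells. Krt8 showed the largest gap between subsets among the 12, with 0.27 in Hox-low and 2.40 in Hox-carrying members, and 1 untreated cell held 27.7% of its untreated UMIs.

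**Figure D4:**
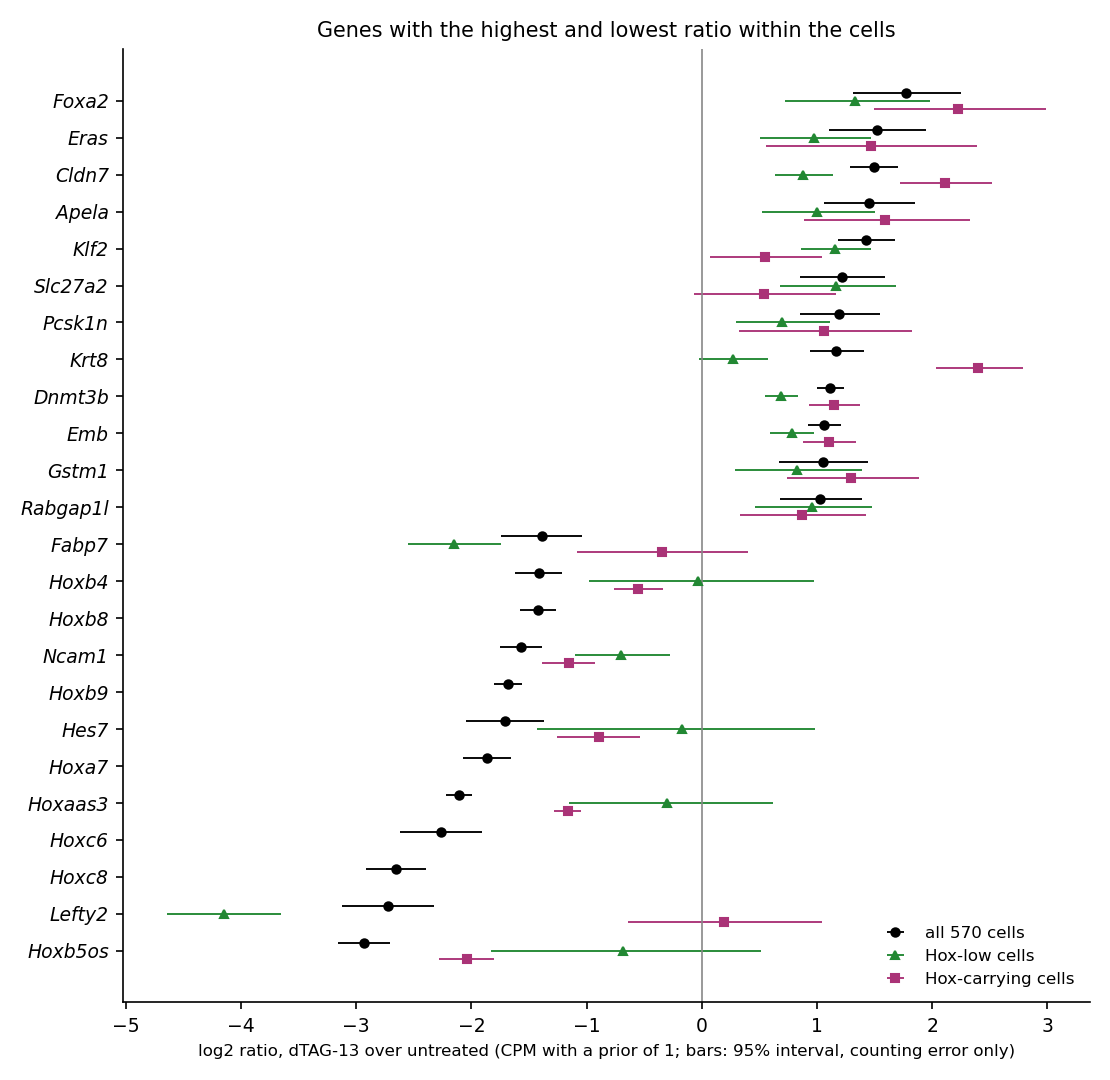
Log2 ratio dTAG-13 over untreated (CPM with 1 added, bars are 95% counting intervals) of the 12 highest and 12 lowest genes, in all double-positive cells (black), Hox-low (green) and Hox-carrying members (purple). Genes of Hox groups 5 to 9 are shown for all cells only, and Lefty2 lies at -4.15 in Hox-low but 0.19 in Hox-carrying members.

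Epithelial genes were higher in the dTAG-13 double-positive cells, as in the other cells of that library. Of 24 described genes of the epithelial list, 13 were higher and 0 lower, with a median log2 ratio of 0.61 beside the 0.01 of all genes. Among other kept cells 20 of the 24 were higher and the median was 1.25. Ap1m2 stood at 5.26 and 21.3 CPM (log2 ratio 1.84, 1.27 to 2.42), Crb3, a polarity protein, at 9.26 and 27.5 CPM, and Cdh1 (E-cadherin) at 29.5 and 55.0 CPM. Epcam (chr17:87635979-87651129) stood at 434 and 673 CPM, a ratio of 0.63 (0.56 to 0.71) that was 0.31 within Hox-low and 0.75 within Hox-carrying members, and the rule had required it of every member. In Hox-low members the epithelial median was 0.38 with 5 of 24 genes higher, where 4.69% of all genes were, and in Hox-carrying members 0.75 with 13 of 25, where 5.22% of all genes were. Of the 13 higher genes, 5 were also higher within Hox-low and 11 within Hox-carrying members, and 3 within both. Of 5 described genes of the non-neural ectoderm list, which holds exclusion genes of the rule, 0 were higher or lower in all members. Among other kept cells 4 of these 5 were higher. Within Hox-low members 0 of 5 were higher and 2 lower, and within Hox-carrying members 5 of 6 were higher and 0 lower. Without Epcam, which the rule required, 19 of 23 epithelial genes in untreated and 9 in dTAG-13 members stood above their level in other kept cells, and the median ratio between libraries was 0.585, beside 1.21 in other kept cells. Rab25, an epithelial trafficking GTPase, stood at 22.03 CPM untreated against 7.71 CPM in other cells, and at 42.8 CPM dTAG-13 against 43.3 CPM.

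Of 8 described mesenchymal genes 4 were lower and 0 higher, with a median of -0.50, beside -0.42 in other kept cells. Vim (vimentin) stood at 132 and 86.7 CPM, a log2 ratio of -0.60 (-0.75 to -0.44), and the value was -0.59 in Hox-low and -0.66 in Hox-carrying members. Cdh2 (N-cadherin) stood at 63.1 and 34.9 CPM, and Zeb1, the paralogue of Zeb2, at 18.3 and 10.9 CPM. Of the 4 lower genes, 3 were lower within each subset and 2 within both, and Cdh2 had a ratio of -0.40 in Hox-low and Zeb1 of -0.39 in Hox-carrying members.

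Hox and trunk mesoderm genes formed the lower end. Of 9 described genes of Hox groups 5 to 9, 8 were lower and 0 higher (median -1.82, and -0.57 with 4 lower in other kept cells). Hoxb9 (chr11:96271457-96276595) had a UMI in 58 untreated and 99 dTAG-13 members and stood at 296 and 91.4 CPM, a log2 ratio of -1.68 (-1.80 to -1.56). Thinned to 5000 UMIs, it was seen in 35.2% and 14.4% of members. Of 9 described genes of groups 1 to 4, 8 were lower (median -1.40, and -0.80 in other kept cells). The median for groups 1 to 4 was -0.65 within Hox-low and -0.86 within Hox-carrying members, each nearer 0 than in the whole set. Of the 8 lower genes of groups 1 to 4, 2 were also lower within Hox-low members, where 2.97% of all genes were, and 5 within Hox-carrying members. Of 13 genes of the streak and caudal epiblast 6 were lower and 1 higher, and of the 6 lower ones 0 were lower within Hox-low and 2 within Hox-carrying members. Cdx2 stood at 105 and 43.7 CPM in all members, and its ratio of -1.24 was -0.40 within Hox-low and -0.57 within Hox-carrying members. T, at 28.5 and 10.8 CPM in all members, had a log2 ratio of 0.96 (-0.11 to 2.03) within Hox-low and -1.14 (-1.58 to -0.71) within Hox-carrying members. All 4 presomitic and all 5 somite genes described were lower. Within Hox-low members 1 of these 4 and all 5 were, and within Hox-carrying members 3 of the 4 and 1 of the 5. Hes7, a Notch-driven oscillator of the presomitic mesoderm, stood at 36.5 and 10.5 CPM, with ratios of -0.17 in Hox-low and -0.90 in Hox-carrying members. Tcf15, a basic helix-loop-helix factor of somites, stood at 28.04 and 12.9 CPM, with ratios of -1.71 and -0.21. Tcf15 was not limited to somite cells here. Thinned to 5000 UMIs, it was seen in 23.7% and 17.5% of naive-rule cells, against 15.6% and 11.05% of other kept cells. The somite list held 9 genes, with 3 at 0 in untreated and 2 in dTAG-13 members. Its sum was 90.4 and 39.6 CPM, against 267 and 178 CPM in other kept cells.

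**Figure D5:**
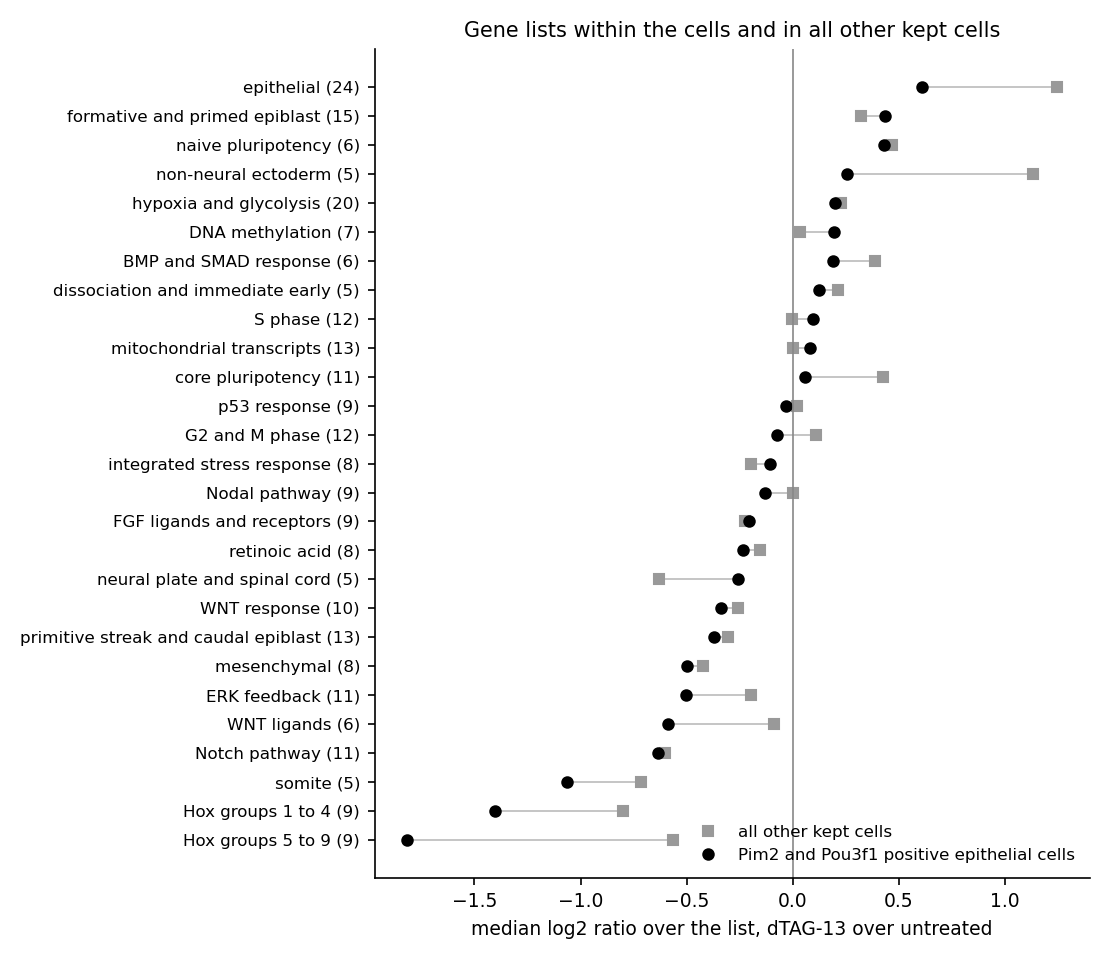
Median log2 ratio dTAG-13 over untreated of the gene lists (number of described genes in brackets) in the double-positive cells (black) and in all other kept cells (grey). The epithelial median is 0.61 in the double-positive and 1.25 in other cells, and Hox groups 5 to 9 stand at -1.82 and -0.57.

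In all members together, called signalling genes were mostly lower, and this did not hold within Hox-carrying members. Nodal signalling patterns the epiblast and is held back by its own targets Lefty1 and Lefty2. Of 9 described genes of the Nodal list 3 were lower and 0 higher, and in other kept cells 0 were either. Lefty2 (chr1:180893108-180899103) had a UMI in 20 untreated and 18 dTAG-13 members and stood at 37.5 and 4.82 CPM, a log2 ratio of -2.73 (-3.13 to -2.33), with 28.0% of the untreated UMIs in 1 cell. Lefty1 had a UMI in 27 and 76 members and stood at 111 and 54.8 CPM, a ratio of -1.01 (-1.18 to -0.83), and 1 cell held 23.2% of its untreated UMIs. The log2 ratios of Lefty2 and Lefty1 were -4.15 and -1.97 in Hox-low members and 0.19 and 0.42 in Hox-carrying members. Within Hox-carrying members 3 of 10 Nodal genes were higher and 0 lower, as were 3 of 6 BMP and SMAD response genes, where 5.22% of all genes were higher and 4.11% lower.

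Of 11 ERK feedback genes 2 were lower and 0 higher (median -0.50), and in other kept cells 0 were (median -0.20). Of these 2, 1 was also lower within Hox-low and 2 within Hox-carrying members. Dusp6, a phosphatase of ERK, stood at 26.5 and 14.9 CPM, a log2 ratio of -0.79 (-1.13 to -0.45), -0.90 in Hox-low and -0.63 in Hox-carrying members. Of 9 FGF ligands and receptors 2 were higher and 3 lower. Of the 2 higher ones, 1 was also higher within Hox-low and 2 within Hox-carrying members. Of the 3 lower ones, 1 was also lower within Hox-low and 0 within Hox-carrying members. Fgf5, a ligand of the epiblast, stood at 9.76 and 27.4 CPM, and Fgf8, a ligand of the streak and tail bud, at 115 and 63.8 CPM, with ratios of -0.25 in Hox-low and -0.57 in Hox-carrying members. Within Hox-carrying members 3 of 10 FGF genes were higher and 1 lower. Of 6 WNT ligands 3 were lower and 0 higher (median -0.59), but 0 of these 3 were lower within either subset, and Wnt8a had a ratio of 0.21 (-0.01 to 0.43). Of 10 WNT response genes 2 were lower, and within Hox-carrying members 2 of 11 were higher and 1 lower. Of the 2 lower in all members, 0 were lower within Hox-low and 1 within Hox-carrying members. Of 11 Notch genes 6 were lower and 0 higher, with a median of -0.64 beside -0.60 in other kept cells, and Hes5, a Notch target, stood at 20.03 and 5.85 CPM. Of these 6, 4 were lower within each subset, while the Notch median within Hox-carrying members was -0.02. Of 6 BMP and SMAD response genes 1 was lower, and it was lower within Hox-low but not within Hox-carrying members. Of 8 retinoic acid genes 2 were lower, 1 of them within Hox-low only and the other within Hox-carrying members only. They included Crabp2, a retinoic acid binding protein, at 115 and 61.4 CPM, with ratios of -0.50 in Hox-low and -0.61 in Hox-carrying members.

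Pluripotency genes differed in both directions. Of 15 formative and primed epiblast genes 4 were higher and 0 lower. The list holds Pim2 and Pou3f1, and without these the median over 13 genes was 0.06, beside 0.31 in other kept cells. The higher ones were Otx2 (5.51 and 22.9 CPM, 1.88), Fgf5 (1.40), Dnmt3b and Slc7a3, an amino acid transporter at 12.8 and 21.3 CPM, whose ratio was 0.48 in Hox-low and 0.51 in Hox-carrying members. Otx2 and Fgf5 were also higher within Hox-low members, at 1.31 and 0.76, and within Hox-carrying members, at 2.50 and 1.93. Otx2 had a UMI in 13 untreated and 78 dTAG-13 members. Of 11 core pluripotency genes 3 were higher, namely Pou5f1, Utf1 and L1td1, and 1, Tdgf1, was lower (median 0.06). None of these 3 was higher within either subset: the ratios in Hox-low and Hox-carrying members were 0.20 and 0.52 for Pou5f1, 0.15 and 0.55 for Utf1 and 0.34 and 0.29 for L1td1. Tdgf1 stood at -1.69 in Hox-low and 1.22 in Hox-carrying members, and Nanog at -0.55 and 0.65. Pou5f1 (chr17:35506018-35510772) had a ratio of 0.62 (0.48 to 0.76), Nanog of 0.10 and Sox2, another core factor, of -0.57 (145 and 97.0 CPM). A single cell held 43% of the untreated Tdgf1 UMIs. Pim2 had a ratio of 0.54 (0.40 to 0.68), which was 0.09 within Hox-low and 0.28 within Hox-carrying members, and Pou3f1 of 0.43 (0.26 to 0.61). Neither reached 1.5-fold.

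Of 3 described calcitonin peptide and receptor genes 1 was higher, Ramp2, a receptor activity-modifying protein, at 21.8 and 43.2 CPM. Calca (chr7:114631478-114636357) had a ratio of 0.56 (0.29 to 0.83), 0.15 in Hox-low and 0.62 in Hox-carrying members. Of 7 DNA methylation genes 1, Dnmt3b, was higher, while Dnmt1, the maintenance enzyme, stood at 225 and 217 CPM. None of 20 hypoxia and glycolysis, 12 S phase, 12 G2 and M phase, 9 p53, 8 integrated stress response or 13 mitochondrial genes was higher or lower. The glycolysis genes did stand above other kept cells, 18 of 20 in the untreated and 19 of 20 in the dTAG-13 library, with median log2 differences of 0.33 and 0.31. Over all described genes these medians were 0.009 and 0.006. All 12 G2 and M phase genes likewise stood above other kept cells in both libraries, with medians of 0.33 and 0.19. Their sum was 3973 and 3766 CPM in the double-positive cells and 3100 and 3308 CPM in other kept cells. In naive-rule cells it was 3692 and 3547 CPM, so high values were not particular to the double-positive cells. Of 5 described immediate early genes 1, Dusp1, was higher, at 7.01 and 12.1 CPM, with ratios of 0.41 and 0.45 in the subsets.

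Some members also carried markers of another lineage, at shares below or above those of other kept cells. Members were counted with at least 2 of the first 3 genes of a list at 2 or more UMIs. The presomitic list was met by 7 untreated (5.6%) and 2 dTAG-13 members (0.449%), against 7.30% and 2.18% of other kept cells. For the somite list it was 6 (4.8%) and 5 (1.12%) against 12.2% and 7.17%. The streak list was met by 2 (1.6%) and 2 (0.449%) against 0.997% and 0.817%. The neural list was met by 1 (0.8%) and 1 (0.225%) against 0% and 0.0891%. The endoderm list (Sox17, Foxa1, Foxa2) was met by 0 untreated and 6 dTAG-13 members (1.35%), against 1.4% and 2.11% of other kept cells. The non-neural ectoderm list (Sfn, Upk1a, Dlx5) was met by 3 and 7 members, but its 3 genes are exclusion genes of the rule. That count was therefore limited by the selection. No member met the notochord, germ cell, endothelium or trophoblast list. For these, 3 counts over the cells examined give a limit of 2.4% for 125 and 0.674% for 445 cells. The exact binomial upper bounds are 2.91% and 0.826%. Among other kept cells the untreated and dTAG-13 shares were 0.169% and 0.134% for notochord and 0.537% and 0.921% for germ cell. They were 0.383% and 0.208% for endothelium and 0% and 0% for trophoblast. Sox17 was at 0 in untreated members and at 2.24 CPM in dTAG-13 members, and 10 of the 125 dTAG-13 members with a Foxa2 UMI also held one of Sox17, an endoderm factor. The part of the lineage-positive cells in the ratios above was not tested.

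Cells were also sought with Calca, Wnt8a and Pou5f1 in place of Pim2, Pou3f1 and Epcam. With no Epcam threshold, the cells of that rule were not selected as epithelial. That rule selected 141 untreated and 355 dTAG-13 cells, 4.94% of kept cells in the latter, and a ratio of shares of 2.33. It shared 35 cells with the first rule in the untreated library (28% of the double-positive and 24.8% of the other set) and 123 in the dTAG-13 library (27.6% and 34.7%). Most cells of each set were thus not in the other.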

How the data were processed

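Raw UMI counts per gene and cell were deposited by the authors as 1 filtered 10x matrix per library. Cell Ranger 6.1.2 and mm10 are named in the submitters' processing notes. How doublets were treated is not stated in the labels. Here barcodes with fewer than 1000 genes or over 10% mitochondrial counts were left out, no doublet caller and no clustering were run, and the membership rule was applied to raw counts. Counts were summed over the cells of a class per library and divided by their total (CPM). Ratios had 1 CPM added to each level. With 1 library a group there was no test: a difference was called by size (1.5-fold between libraries, 2-fold in both libraries between classes). Intervals are 95% exact binomial, Poisson or conditional and cover counting error only. The ratio and its interval were run on simulated summed counts with known fold changes. Those counts held counting error only, so the run could not check the effect of differences between cells.

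Named genes were the rule genes and markers, the 20 highest over other kept cells, the 12 highest and 12 lowest between libraries, the 8 highest and 8 lowest against each of the naive-rule and non-neural ectoderm-rule cells (for these picks at a mean of 20 CPM or more, with predicted genes passed over), and up to 5 genes a list with its first 3 markers. The members and the 36 lists were chosen with earlier results of these data known, so no list is independent evidence. Thinning drew 5000 UMIs per cell and left out 0 untreated and 1 dTAG-13 members as shallower. Alternatives covered the rule's thresholds, the prior, the scaling (TMM and median-of-ratios factors), filters, depth and subsets. Software was python 3.11.15, numpy 2.4.6, scipy 1.17.1, pandas 2.3.3 and matplotlib 3.10.9. Upstream sequences came from RefSeq (GRCm38.p6), gene positions from GENCODE M21 (GRCm38).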

Additional observations from a re-analysis of the deposited data

How the results depend on the processing

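No paired analysis was possible because each group is 1 library, and for the same reason no replicate could be left out. The share of double-positive cells was higher in the dTAG-13 library under every alternative run. It was 0.828% and 2.59% with Pim2 and Pou3f1 at 2 or more UMIs, 1.29% and 5.10% with Epcam at 10 or more, 2.83% and 9.75% with no exclusions, and 2.62% untreated (ratio 2.51) with no Epcam threshold. On cells thinned to 5000 UMIs it was 0.305% and 1.85% (ratio 6.05). That setting used a changed rule, with the thresholds of Epcam and of the naive genes lowered to 1 UMI. The share was 4.94% dTAG-13 (ratio 2.33) with the Calca, Wnt8a and Pou5f1 rule, which has no Epcam threshold. Over Epcam-positive cells it was 5.48% and 8.91% (ratio 1.63). Hox-low members alone gave 1.08% and 5.03% (ratio 4.64) and Hox-carrying members 0.798% and 1.17% (ratio 1.47). These last 3 splits, and leaving out the richest cell of each library, were chosen after seeing the data.

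The counts of genes called moved more. Genes higher and lower between libraries numbered 132 and 102 with a prior of 5 CPM, 822 and 548 with no CPM filter, 974 and 892 on thinned cells, 427 and 481 with Pim2 and Pou3f1 at 2 or more UMIs, 439 higher in Hox-low members, and 495 and 389 in Hox-carrying members. Against other kept cells the counts were 16 and 20 with a prior of 5 CPM, 58 lower on thinned cells, 68 and 66 without cells above 2 times the median UMI count, 24 higher with the Calca rule, and 91 and 73 for Hox-low members. Of lists with 5 or more described genes, 1 had a median at least 1.5-fold higher and 5 lower in the reported setting. These were 0 and 3 with a prior of 5 CPM and with the mean CPM over cells, and 0 and 1 in Hox-low members. The higher count was 0 without the deepest cells and with Pim2 and Pou3f1 at 2 or more UMIs, and 2 with the Calca rule and in Hox-carrying members. Of 66 gene ratios, 45 were called, and 0 of all 66 had another sign under TMM or median-of-ratios scaling. In Hox-carrying members 2 called ratios did, Lefty2 (0.19) and Lefty1 (0.42). In Hox-low members the called ratios with another sign were T (0.96), with an interval that includes 0, and Hoxc6 (0.57), whose level there is fixed near 0 by the split and is no reversal. Of the 21 ratios not called, 9 had another sign in Hox-low members, 3 in Hox-carrying members and 9 with Pim2 and Pou3f1 at 2 or more UMIs. The cause of these shifts was not tested. Otx2, Foxa2 and Fgf5 rest on few UMIs per cell, so their shares of positive cells are limited by depth.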

Other observations

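Some genes that stood out in the double-positive cells fall in no list. Anxa2, a membrane-binding annexin, stood at 28.5 CPM untreated and 41.1 CPM dTAG-13, against 11.03 and 18.02 CPM in other kept cells. Bst2 (tetherin, an interferon-induced membrane protein) stood at 67.6 and 79.8 CPM against 24.9 and 38.5 CPM, and Ddit4 (REDD1, an inhibitor of mTORC1) at 170 and 183 CPM against 80.5 and 88.0 CPM. Ier3, an early response gene, stood at 23.5 and 26.3 CPM, level with the 26.0 and 26.5 CPM of naive-rule cells and above the 2.64 and 4.57 CPM of non-neural ectoderm-rule cells.

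Krt7, a keratin of simple epithelia, had a UMI in 12 untreated and 159 dTAG-13 members and stood at 5.26 and 25.7 CPM, with log2 ratios of 1.97 and 1.94 in Hox-low and Hox-carrying members. A single cell held 33.3% of its untreated UMIs, and the ratio was 2.52 without the richest cell of each library. Krt7 was the only described gene of the trophoblast and amnion list. The log2 ratio of that list was 2.095 in all members and 1.55 in other kept cells, so the rise was not particular to the members. Crabp1, a retinoic acid binding protein, had opposite ratios in the subsets, -1.18 in Hox-low and 0.57 in Hox-carrying members. Sfn, an exclusion gene of the rule, did as well, at -1.48 and 2.62, with 57% of its untreated UMIs in 1 cell. These differences between subsets were not tested.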
